A study of Bos taurus with 48 samples.

Results

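The insulin-like growth factors, their receptors and their binding proteins were followed in bovine skeletal muscle from early gestation to adulthood and under a change of diet. The set comprised 9 genes, namely the ligands IGF1 and IGF2, the receptors IGF1R and IGF2R, and the binding proteins IGFBP2, IGFBP3, IGFBP4, IGFBP5 and IGFBP6. They were chosen by name. A probe was taken where the array's gene name, or the symbol in parentheses in its description, was one of these names. This gave 11 of the 21475 probes on the array, with 2 probes each for IGF2 and IGFBP5 and 1 for each other gene. All 9 genes were among the 14662 genes that passed the filter on dim probes and were tested.

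RNA came from the longissimus muscle (LTL, the large muscle along the back), and 48 two-colour Agilent arrays gave 96 channels from 35 animals in 26 conditions. In the first experiment each array carried a Piedmontese × Hereford and a Wagyu × Hereford sample of the same age. The prenatal ages were 60, 135 and 195 days of gestation, with 3 arrays each, and newborn animals had 3 arrays. There were 4 arrays each at 3, 7, 12, 20, 25 and 30 months. The Piedmontese cross is a lean, heavily muscled type and the Wagyu cross a highly marbled one, and all these animals had a Hereford parent. In the second experiment each array carried an adult Belmont Red animal on a weight-loss diet (restricted) and one on a growth diet, with 4 arrays at each of the times 0, 1 and 2. The animals were not independent at every age. The 3 arrays at 60 days held the same single animal of each cross, the post-natal ages were repeated biopsies of 9 animals (5 Piedmontese and 4 Wagyu crosses), and the restricted diet had 4 animals at time 0, 3 at time 1 and 2 at time 2. The growth diet had 4, 4 and 2. Repeats of an animal also stood among the Wagyu samples at 135 days (2 animals on 3 arrays), the Piedmontese ones at 195 days (2 on 3) and the Wagyu ones at 12 months (2 on 4), so that part of the spread between arrays at these ages is within animals. A pair of the Piedmontese samples at 195 days carries the same number with a different letter and was counted as 2 animals. If they are 1 animal, the fetal animals number 11. The prenatal, post-natal and diet samples lay on different slides and were scanned in different sessions, so that for the steps from birth to 3 months and from 20 to 25 months, and for fetal against post-natal muscle, age and slide cannot be told apart. Of the 8 markers of muscle fibres looked for (ACTA1, CKM, DES, MYH1, MYH2, MYH7, TNNT3 and MB), 7 were on the array under those names, and each was well above background in all 96 channels. One Piedmontese fetus at 135 days, on the array of replicate 2, went against its label. Its mean level over the muscle fibre markers was 10.05 (other 11 fetal animals 13.24 to 16.47) and over the 3 tested myoblast markers 8.94 (12.63 to 13.39), whereas its mean over the 4 tested adipocyte markers was 13.81 (6.91 to 9.57). It had the highest fetal IGF1 (11.14, next 10.56) and the lowest fetal IGF2 (11.34) and IGFBP5 (9.59), and results are also given without it. In biopsies of whole muscle, fewer cells of a type and less RNA per cell cannot be told apart.

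IGF1 and IGF2 are small secreted peptides that promote the proliferation, survival and differentiation of muscle precursors and the growth of fibres. Both act through IGF1R, a receptor tyrosine kinase, whereas IGF2R, also the mannose 6-phosphate receptor, binds IGF2 and carries it to lysosomes for degradation. The binding proteins hold the ligands in the circulation and the tissue matrix, and lengthen or limit their access to the receptor. IGF2 is widely known as a growth factor of the fetus, and IGF1 mediates much of the action of growth hormone after birth.

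Each probe reads 1 short stretch of a transcript, and the paired probes of IGF2 and of IGFBP5 differed in brightness. Over the 26 conditions the pair of IGFBP5 ran together (r = 0.89) more closely than that of IGF2 (r = 0.44). What sets the probes of a pair apart was not tested. The stretches printed are bases 16 to 45 of the 60-base probes, 5′ to 3′, as the array files list them, and no letter is in capitals because none is singled out. They are shown because the paired probes of IGF2 gave unlike signals, the brighter IGFBP5 probe had the larger differences at birth and under the diet, IGF1R was higher at birth and under the restricted diet, and IGFBP2 had the widest swing between detection and background. The brighter IGFBP5 probe is listed in the files under an expressed sequence tag, with IGFBP5 in its description.
IGF2, brighter probe: aatcagcccccttgaaacgaattggctttt
IGF2, dimmer probe: cccaccgcccaggggagcttcagagacaac
IGFBP5, brighter probe: cccctgaggatctcacgttttattaaaaga
IGF1R: cggccttcgttcctggagatcatcagcagc
IGFBP2: cgagcagcagggggctcgaggggtgcacac
The GC content of the whole probes was 43.3%, 55%, 35%, 55% and 60% in that order.

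A channel counts as measured where the scanner software called the spot well above background. By this mark IGF1, IGF2R, IGFBP3, IGFBP4 and IGFBP6 were measured in 96 of 96 channels and IGF1R in 92 of 96. The brighter probe of IGF2 was measured in 96 of 96 channels and the dimmer one in 40. For IGFBP5 these were 96 and 58, with the dimmer probe in 0 of 6 newborn channels. Over the 26 conditions the paired probes correlated at r = 0.44 for IGF2 and r = 0.89 for IGFBP5. IGFBP2 was measured in 18 of 18 fetal channels but in 1 of 6 newborn, 6 of 48 post-natal and 3 of 24 diet channels. No member probe was saturated. All levels below are log2 normalised intensities, and a gene with 2 probes is their mean. Levels of different probes were not compared with each other.

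**Figure D1:**
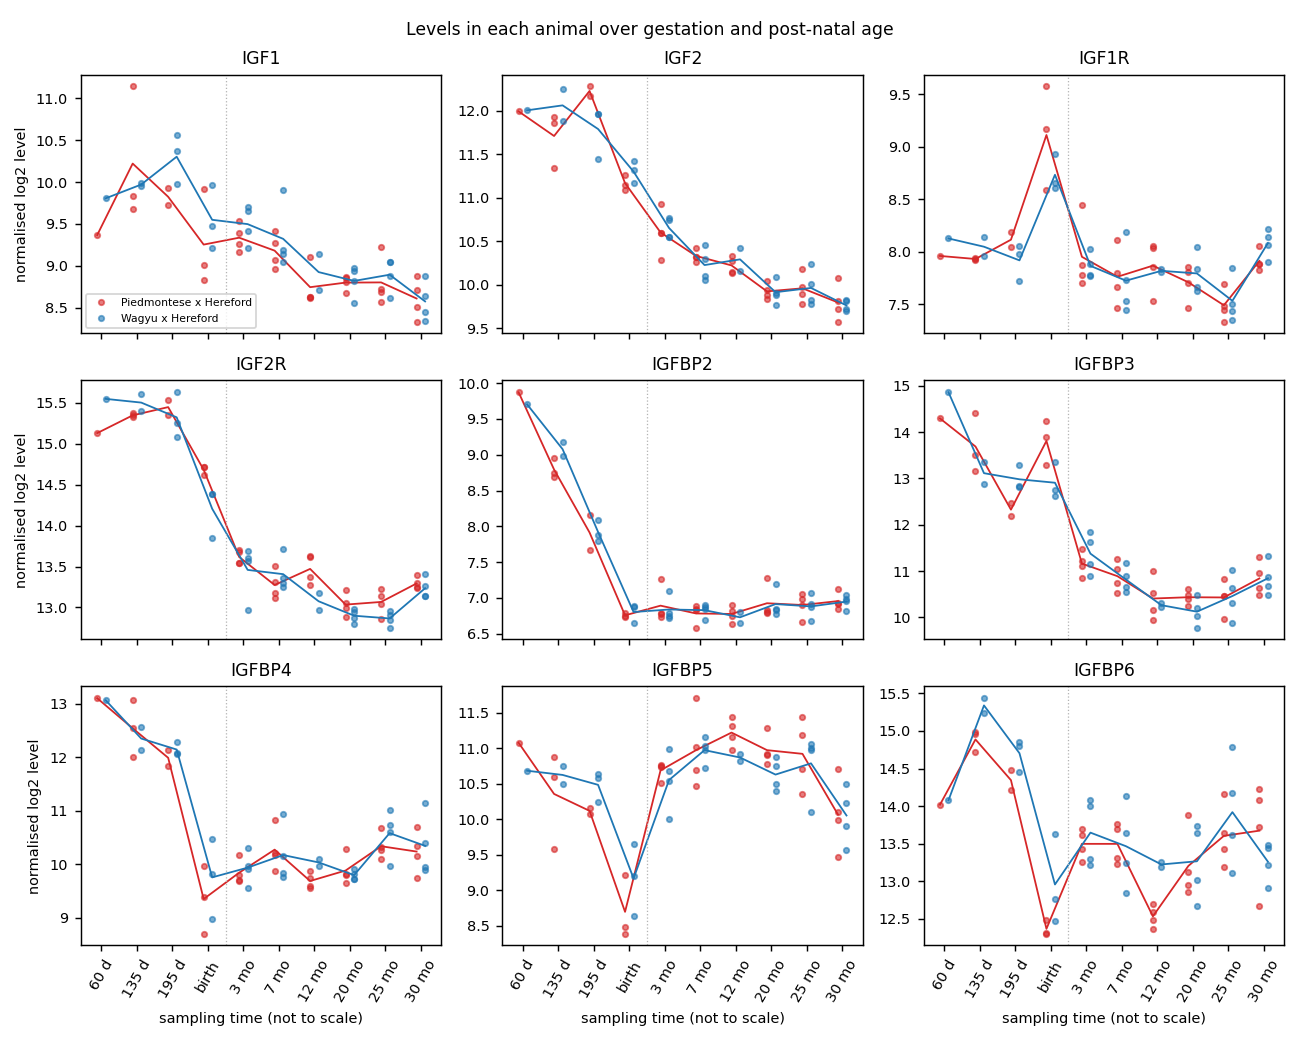
Level of each gene (log2 normalised intensity, vertical axis) in each animal at the 10 ages from 60 days of gestation to 30 months (horizontal axis), with points for the animals and lines through the means of each cross, Piedmontese in red and Wagyu in blue. IGF2 and IGF2R step down at birth and again at 3 months, IGF1R peaks at birth, IGFBP5 has its lowest level at birth, and IGFBP2 is near background from birth on.

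Post-natal muscle held less of most of these transcripts than fetal muscle. With each animal as 1 value, 8 of the 9 members differed between the 12 fetal and the 9 post-natal animals in limma at a Benjamini-Hochberg adjusted p under 0.05, all 8 of them lower after birth. Of all genes tested, 74.7% were called and 35.9% were called lower, so that being called says little here. The median difference was -1.77 over the members and 0.02 over all genes, on the log2 scale. The animals of both groups did not overlap for 6 members (IGF2, IGF2R, IGFBP2, IGFBP3, IGFBP4 and IGFBP6), against 40.8% of all genes. Each post-natal value was the mean over the ages at which that animal was sampled. Single post-natal samples of IGFBP6 lay inside the fetal range. IGFBP2 passed the filter on dim probes only through its fetal channels, so its place in both counts is no test. Without the 135-day fetus low in muscle markers 8 members were again called lower, and 75.8% of all genes were called. IGF1 was then -0.92, IGF2 -1.83, IGFBP3 -2.53 and IGFBP5 +0.24 (adjusted p = 0.123). With the 2 like-numbered samples as 1 animal 8 were called, IGF1R at adjusted p = 0.049.

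IGF2 ran from 11.34 to 12.28 in the fetal animals (median 11.96) and from 10.01 to 10.26 in the post-natal ones (median 10.14). Every post-natal animal was below every fetal one, and the 6 newborn animals lay between the groups at 11.09 to 11.43. IGF2 fell by 1.78 (SE 0.097, adjusted p = 5.54e-13), which is 3.43-fold. This mean holds the dimmer probe, which had medians of 7.10 and 7.01 in the fetal and post-natal animals and was near background. On the brighter probe alone IGF2 ran from 15.75 to 17.39 in fetal and from 12.97 to 13.52 in post-natal animals, and fell by 3.50 (SE 0.17, adjusted p = 1.38e-13), 11.3-fold.

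IGF1 had a median of 9.94 in the fetal animals (9.37 to 11.14) and of 9.001 in the post-natal ones (8.78 to 9.42). Of the fetal animals 11 of 12 were above the mean over ages of every post-natal one. Single post-natal samples reached 9.70 at 3 months and 9.91 at 7 months (both Wagyu crosses), inside the fetal range. The newborn animals spread across both groups, from 8.83 to 9.96. The difference was -1.02 (SE 0.16, adjusted p = 5.95e-06), 2.03-fold. Both ligands were thus lower in the post-natal animals.

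The receptors differed in how far they moved. IGF2R ran from 15.08 to 15.63 in fetal, 13.85 to 14.72 in newborn and 13.11 to 13.42 in post-natal animals, with no overlap between any of these groups. It fell by 2.16 (SE 0.067, adjusted p = 7.50e-17) or 4.46-fold from fetal to post-natal muscle. IGF1R had medians of 7.97 (7.72 to 8.18) in fetal and 7.76 (7.56 to 8.11) in post-natal animals, and the groups overlapped. Its difference was -0.16 (SE 0.067, adjusted p = 0.032), and this call was lost when the arrays were centred on their medians without loess (-0.11, adjusted p = 0.27), when replicate 2 was left out (-0.12, adjusted p = 0.13) and without the 60-day animals (-0.16, adjusted p = 0.057). The newborn animals, at 8.59 to 9.57, were above all fetal and post-natal animals in IGF1R.

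Of the binding proteins, IGFBP3 is the main carrier of IGFs in plasma and IGFBP4 is mostly an inhibitor of IGF action. IGFBP3 ran from 12.18 to 14.86 in fetal animals (median 13.22) and from 10.48 to 11.04 in post-natal ones (median 10.73), and fell by 2.63 (SE 0.26, adjusted p = 9.43e-09), 6.17-fold. IGFBP4 ran from 11.85 to 13.11 (median 12.21) and from 9.90 to 10.83 (median 10.03), and fell by 2.25 (SE 0.17, adjusted p = 8.56e-11), 4.75-fold. In both, every post-natal animal was below every fetal one. IGFBP6, which prefers IGF2 as its ligand, had medians of 14.76 (14.02 to 15.44) and 13.48 (12.99 to 13.76). It fell by 1.26 (SE 0.16, limma's adjusted p = 3.35e-07), again without overlap of the values per animal. These are means over ages, and single post-natal samples reached 14.79 (Wagyu cross, 25 months), inside the fetal range. With the newborn animals counted among the fetal ones, the IGFBP6 difference was -0.58 and not called (adjusted p = 0.168), and with median centring it was -0.61.

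IGFBP5, a binding protein secreted by differentiating muscle cells, was the one member not called. It ran from 9.59 to 11.08 in fetal animals (median 10.59) and from 10.43 to 11.71 in post-natal ones (median 10.74), and the groups overlapped. The difference was +0.33 (95% interval -0.01 to 0.66, adjusted p = 0.0763). It was called higher after birth in 4 alternatives, by 0.73 with the processed signals, 0.70 with median centring, 0.41 without the 60-day animals and 0.84 with the newborn animals counted as fetal. On the brighter probe alone the difference was +0.29 (95% interval -0.22 to 0.81, limma's adjusted p = 0.286). Leaving out a replicate gave differences from 0.10 to 0.38.

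IGFBP2 binds both ligands and is known as a binding protein of fetal tissues. It ran from 7.66 to 9.87 in fetal animals and from 6.83 to 6.90 in post-natal ones. The measured difference was -1.77 (SE 0.23, adjusted p = 6.13e-07 in limma). The probe passed the filter of 24 channels with 28, of which 18 were fetal, so it was tested only because it was high in fetal muscle. This p-value, the lack of overlap and the call of IGFBP2 at birth are therefore not independent support for its fall. Since the probe was not well above background in any of the 8 channels at 12 months or at 25 months, its fall there is only a bound. The level at 60 days was at least 8.16-fold that at 12 months, at 135 days at least 4.43-fold and at 195 days at least 2.23-fold. Against 25 months these bounds were 7.39-fold, 4.01-fold and 2.02-fold. They are means over animals. Over arrays the lowest of them were 2.15-fold against 12 months and 1.96-fold against 25 months, both at 195 days, and the 60-day bound against 12 months was 8.09-fold. With the scanner software's processed signals, which have no offset, the fetal to post-natal difference was -4.69.

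Markers of other cell types moved with this comparison. All 6 fibroblast and matrix markers (COL1A1, COL1A2, COL3A1, DCN, LUM and PDGFRA) were lower in post-natal animals, with a mean level over the list of 11.34 to 12.3 against 13.29 to 14.37 in the fetal ones. Of the 7 muscle fibre markers 4 were higher, with list means of 16.78 to 17.14 against 10.05 to 16.47. Of 3 tested myoblast markers 2 were lower (11.45 to 11.73 against 8.94 to 13.39) and of 4 tested adipocyte markers 1 was higher (8.98 to 10.84 against 6.91 to 13.81). Both tested blood markers and both tested liver markers were lower, 3 of 4 leukocyte markers were higher, and of 4 endothelial markers 3 were lower and 1 higher. Their part in the results for the IGF genes was not tested.

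**Figure D2:**
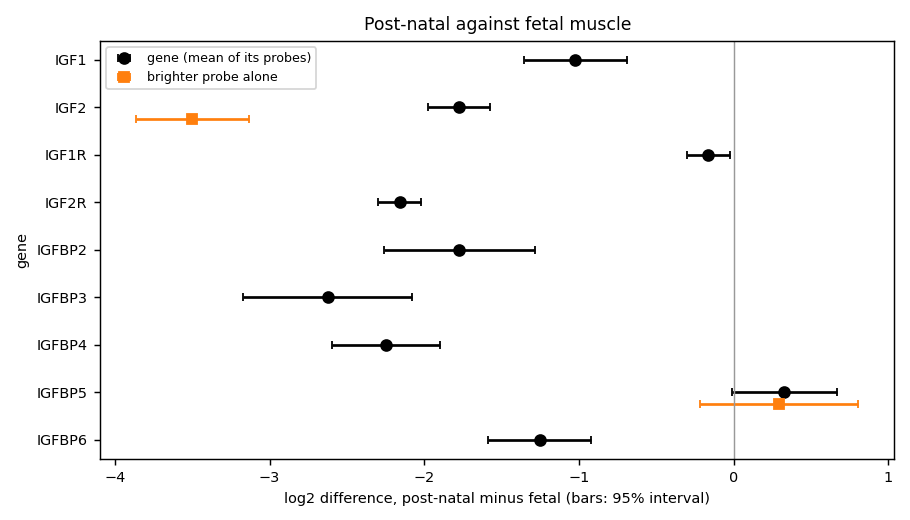
Difference between 9 post-natal and 12 fetal animals (log2, post-natal minus fetal, horizontal axis) for each gene, with 95% intervals from limma. Circles are the gene, squares the brighter probe alone for IGF2 and IGFBP5. IGF2R is at -2.16 and the brighter IGF2 probe at -3.50, whereas IGF1R is at -0.16 and the interval of IGFBP5 crosses 0.

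The ages between which each gene moved were asked with the 9 steps from one sampled age to the next. For these, each array gave 1 value (the mean of its 2 channels, with the 3 arrays at 60 days averaged to 1 value), and 26 of the 81 member steps were called. The step from 195 days to birth held 9 of these and the step from birth to 3 months 6. Over all genes these steps also had the largest shares called, 61.9% and 39.8%, against 1.3% to 22% at the others.

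In early gestation 3 of the 5 binding proteins changed from 60 to 135 days and 2 of them from 135 to 195 days, while no ligand or receptor was called. Of all genes, 13.3% were called from 60 to 135 days, and 3 members were among them. IGFBP2 fell by 0.84 (SE 0.17, adjusted p = 0.00074), from arrays at 9.67, 9.76 and 9.94 to a mean of 8.95 ± 0.11 (SD, n = 3). IGFBP3 went from 14.58 ± 0.062 to 13.44 ± 0.43 (SD, n = 3 arrays each) and fell by 1.14 (adjusted p = 0.0062), and IGFBP6 went from 14.05 ± 0.17 to 15.10 ± 0.078 and rose by 1.05 (adjusted p = 0.036). The 60-day side of these differences is 1 animal of each cross. From 135 to 195 days, where 22% of all genes were called, IGFBP2 fell further by 1.08 (SE 0.12, adjusted p = 1.14e-07) and IGFBP3 by 0.81 (SE 0.20, adjusted p = 0.0040). IGF2 stood at 12.00 ± 0.12, 11.92 ± 0.085 and 12.00 ± 0.11 at 60, 135 and 195 days (SD, n = 3), and IGF2R at 15.34 ± 0.069, 15.41 ± 0.066 and 15.37 ± 0.11. The gaps between these ages were smaller than the spread between arrays.

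The gestation calls were sensitive to the processing. With median centring none of the 5 held (adjusted p from 0.074 to 1.00), and IGFBP2 was not called from 60 to 135 days with the processed signals (-1.02, adjusted p = 0.38). That of IGFBP6 was lost in 5 of 14 settings, among them without replicate 1 or 3 and without the array of the fetus low in muscle markers (1.01, adjusted p = 0.060). That of IGFBP3 was lost without replicate 3 from 60 to 135 days (-1.10) and without replicate 2 from 135 to 195 days (-0.60). Without that fetus's array IGFBP3 was -1.35 and -0.59, both called. With the slide as a replicate block, which takes the 60-day arrays as 3 values, IGF1 rose by 0.51 from 60 to 135 days (adjusted p = 0.025) and IGFBP6 fell by 0.60 from 135 to 195 days (adjusted p = 0.034). From 60 to 135 days 3 of 4 endothelial markers (list means 10.38 to 10.47, then 11.07 to 11.66) and 2 of 4 adipocyte markers (6.91 to 6.97, then 8.12 to 13.81) were higher and 1 of 6 matrix markers lower. From 135 to 195 days all 7 muscle fibre markers were higher (10.05 to 15.47, then 16.08 to 16.47), as were 2 of 4 endothelial ones and 1 of 4 leukocyte ones, and 2 of 4 adipocyte, 1 of 3 myoblast and 1 of 6 matrix markers were lower. Their part in these results was not tested.

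Between 195 days and birth all 9 members changed, in both directions, at a step where 61.9% of all genes were called, 32.3% higher and 29.6% lower. IGF1R rose from arrays at 7.85, 8.04 and 8.12 to 8.60, 9.05 and 9.11, a rise of 0.92 (SE 0.15, adjusted p = 5.11e-06) or 1.89-fold, and its newborn level was the highest of the 10 ages. The next level in order, 8.04 ± 0.10 at 60 days, was lower by more than the spread between arrays, whereas the levels at 60, 135 and 195 days and at 30 months lay within it. IGFBP3 rose by 0.73 (SE 0.20, adjusted p = 0.0026). The other 7 fell.

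Among those that fell, IGFBP4 went from 12.05 ± 0.16 to 9.55 ± 0.58 (SD, n = 3), a fall of 2.49 (SE 0.27, adjusted p = 3.35e-09) or 5.63-fold. IGFBP6 fell by 1.84 (SE 0.24, adjusted p = 1.22e-07), 3.58-fold. IGFBP5 went from 10.30 ± 0.095 to arrays at 8.56, 8.80 and 9.44, a fall of 1.36 (SE 0.24, adjusted p = 1.69e-05), and by 2.40 on its brighter probe (adjusted p = 3.21e-06). Its newborn level was the lowest of all ages, and the next lowest, 10.06 ± 0.45 at 30 months (n = 4), was higher by more than the spread. IGFBP2 fell by 1.10 (adjusted p = 5.17e-09) to 6.78 ± 0.075, close to background, IGF2R fell by 0.92 (SE 0.11, adjusted p = 1.33e-08), IGF2 by 0.77 (SE 0.094, adjusted p = 5.05e-08; 1.47 on the brighter probe) and IGF1 by 0.65 (SE 0.17, adjusted p = 0.0019).

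The changes at birth depended in part on the scaling. With arrays centred on their medians and no loess, the median of all genes moved by 0.20 at this step, and IGF1 (-0.66), IGF2 (-0.32), IGF2R (-0.04, adjusted p = 0.97), IGFBP3 (+1.25) and IGFBP6 (-1.20) were no longer called, while IGF1R, IGFBP2, IGFBP4 and IGFBP5 were still called in the same direction. The fall of IGF1 was also lost without replicate 3 (-0.55, adjusted p = 0.052). With the processed signals IGF1R rose by 1.41 and IGFBP2 fell by 3.90. Of the matrix markers 5 of 6 were lower at birth (list means 10.91 to 11.77 against 13.29 to 13.95 at 195 days), as were all 3 tested myoblast markers (9.85 to 11.35 against 12.63 to 12.83), both tested blood markers (7.31 to 7.87 against 10.4 to 11.61) and 3 of 4 endothelial ones, and their part in the result was not tested.

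From birth to 3 months, 6 members changed, at a step where 39.8% of all genes were called. The rise of IGF1R was followed by a fall of 1.01 (SE 0.14, adjusted p = 1.71e-06) to 7.91 ± 0.22 (SD, n = 4), and the fall of IGFBP5 by a rise of 1.69 (SE 0.23, adjusted p = 1.05e-06; 2.84 on the brighter probe) to 10.62 ± 0.26. IGFBP6 rose by 0.91, to 13.57 ± 0.15. IGFBP3 fell by 2.09 (SE 0.19, adjusted p = 1.54e-09), 4.25-fold. IGF2 and IGF2R fell again, by 0.61 and 0.91, to 10.63 ± 0.10 and 13.54 ± 0.14. On its brighter probe alone IGF2 fell by 1.12. IGFBP4 stood at 9.89 ± 0.24 and was not called. The scaling mattered here too. With median centring IGF2R (-1.42) and IGFBP6 (0.57) were not called. Of the matrix markers 4 of 6 were higher at 3 months (list means 11.83 to 12.43 against 10.91 to 11.77), as were 3 of 4 leukocyte and 2 of 3 myoblast markers, and their part was not tested.

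Fewer members were called at each step after 3 months than from birth to 3 months. From 3 to 7 months (5.95% of all genes) IGF2 fell by 0.35 (adjusted p = 0.010), and from 12 to 20 months (4.7%) IGF2 fell by 0.37 (adjusted p = 0.0071) and IGF2R by 0.33 (adjusted p = 0.032). On the brighter probe alone these falls of IGF2 were 0.66 (limma's adjusted p = 0.0078) and 0.76 (adjusted p = 0.0029). No member was called from 7 to 12 months (5.5%) or from 20 to 25 months (1.3%) in limma. An unadjusted p under 0.05 was reached by 3 and 2 members, and by 2944 and 2152 of the 14662 genes. With the slide as a replicate block, IGFBP3 fell by 0.53 (adjusted p = 0.025) and IGFBP6 by 0.61 (adjusted p = 0.031) from 7 to 12 months, on all 4 slides. With 1 value per animal and age, IGFBP6 fell by 0.72 from 7 to 12 months (adjusted p = 0.031) and IGFBP4 rose by 0.62 from 20 to 25 months (adjusted p = 0.034). The calls made were also unsteady. That of IGF2 from 3 to 7 months was lost in 4 of 14 settings (without replicate 3 or 4, with processed signals and with median centring), that of IGF2 from 12 to 20 months in 3 (without replicate 4 and with the same scalings), and that of IGF2R in 6 (without each of the 4 replicates and with the same scalings). Over the whole span from 3 to 20 months, where the ages lay on the same slides and 12.5% of all genes were called and 5.95% were called lower, 4 members fell. IGF1 fell by 0.61 (SE 0.15, adjusted p = 0.0065), from 9.42 ± 0.16 to 8.81 ± 0.099. IGF2 fell by 0.71 (SE 0.082, adjusted p = 1.08e-06), from 10.63 ± 0.10 to 9.92 ± 0.11, and by 1.41 on the brighter probe. IGF2R fell by 0.57 (SE 0.092, adjusted p = 9.38e-05), and IGFBP3 by 0.99 (SE 0.17, adjusted p = 0.00030), from 11.27 ± 0.22 to 10.28 ± 0.13. The 4 that fell were thus both ligands, the receptor that clears IGF2, and the plasma carrier. With median centring none of the 4 was called (IGF1 -0.51, IGF2 -0.60, IGF2R -0.36, IGFBP3 -0.83), and IGF1 was not called without replicate 3 (-0.59, adjusted p = 0.063). Over this span 3 of 6 matrix markers were lower (list means 11.83 to 12.43, then 10.97 to 12.13), as was 1 of 4 endothelial ones (10.44 to 11.1, then 10.2 to 10.72), and 1 of 4 adipocyte markers was higher (7.98 to 9.88, then 9.03 to 11.09), and their part was not tested.

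From 25 to 30 months, where 7.8% of all genes were called, IGF1R and IGFBP5 again moved in opposite directions. IGF1R rose from arrays at 7.34, 7.44, 7.49 and 7.77 to 7.86, 7.97, 8.05 and 8.10, by 0.49 (SE 0.13, adjusted p = 0.018). Its probe was well above background in 5 of 8 channels at 25 months and in 8 of 8 at 30 months, so the rise starts near background. IGFBP5 fell from 10.41, 10.71, 11.08 and 11.22 to 9.52, 10.01, 10.11 and 10.61, by 0.79 (SE 0.21, adjusted p = 0.016). IGF2R rose by 0.30 (adjusted p = 0.042). The arrays of both ages did not overlap for IGF1R and overlapped for IGFBP5. The fit took the arrays as unpaired, although same-numbered arrays of both ages held the same animals on the same slide. In each such pair IGF1R and IGF2R rose and IGFBP5 fell. The calls at this step rested on few arrays. Leaving out replicate 2, 3 or 4 ended those of IGF1R and IGFBP5, leaving out any replicate ended that of IGF2R, and without replicate 4 the fall of IGFBP5 was 0.49. With median centring the IGF1R difference was +0.25 (adjusted p = 0.148), below that setting's shift of 0.48 in the median of all genes, that of IGFBP5 was -0.41 (adjusted p = 0.17) and that of IGF2R +1.44 (adjusted p = 0.041). Of the matrix markers 2 of 6 were lower at 30 months, as were both tested blood markers, and their part was not tested.

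**Figure D3:**
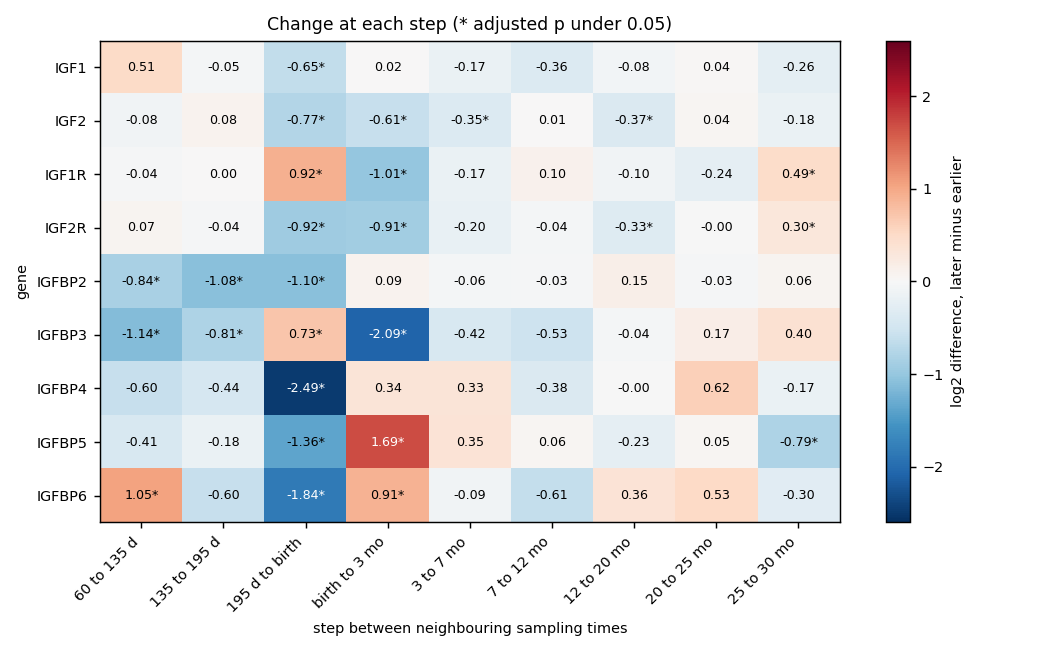
Change of each gene (rows) at each of the 9 steps between neighbouring ages (columns), as the log2 difference, later minus earlier, in colour and number, with an asterisk where the adjusted p from limma was under 0.05. The column from 195 days to birth holds 9 called changes and the next one 6, at steps where 61.9% and 39.8% of all genes were called. IGF1R and IGFBP5 carry opposite signs at both.

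Across all 26 condition means, IGF1R and IGFBP5 ran in opposite directions, with Pearson's r = -0.90 (n = 26). Within the 8 prenatal and newborn conditions r was -0.93 (n = 8), within the 12 post-natal ones -0.56 (n = 12) and within the 6 diet ones -0.97 (n = 6). Over the 26 conditions this pair had the most negative r of all pairs of members. IGF1R also ran against IGFBP4 (-0.93 and -0.86) and IGFBP6 (-0.90 and -0.87) in the prenatal and newborn and in the diet conditions. Over all 26 these were -0.27 and -0.45. All are descriptions over condition means that share animals, arrays and slides. For each member, the genes whose levels ran most like it over the 20 developmental conditions were named by the highest Pearson's r. They were RIPK1 (0.94) and CRX (0.94) for IGF1, LOC508883 (0.98) and LRRC58 (0.97) for IGF2, NOP2 (0.94) and SLC4A7 (0.94) for IGF1R, and TMEM214 (0.98) and CAPRIN2 (0.98) for IGF2R. For the binding proteins they were SCG5 (0.99) and SDC1 (0.99) for IGFBP2, LOC541057 (0.98) and MTA1 (0.98) for IGFBP3, NCAM1 (0.99) and MAPK7 (0.99) for IGFBP4, and DPT (0.96) and MFAP5 (0.95) for IGFBP6. Those of IGFBP5 were a pair of unnamed transcripts, at 0.93 and 0.92. IGFBP2 was near background in most newborn and post-natal channels, so that its r rests mainly on the fetal conditions. Each r was picked as the highest over all tested genes and is no test.

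No member passed the test between the Piedmontese and Wagyu crosses at any age. Differences are given as Piedmontese minus Wagyu with 1 value per animal. Among fetal animals (6 and 6) no gene was called in limma (0%), and 351 genes had an unadjusted p under 0.05. One member was among these, IGFBP6, with -0.32 (95% interval -0.53 to -0.11, limma's adjusted p = 1.00). The intervals of the other fetal differences held 0, the widest being those of IGF1 (-0.69 to 0.38) and IGFBP3 (-0.67 to 0.49) and the narrowest that of IGF1R (-0.19 to 0.19). Without the fetus low in muscle markers IGF1 was -0.35 (unadjusted p = 0.0056, limma's adjusted p = 1.00) and IGFBP3 -0.25, and again no gene was called.

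At birth, with 3 animals of each cross, 1 gene that is no member was called (0.00682%), and 939 had an unadjusted p under 0.05. IGFBP3 stood at 13.29, 13.90 and 14.24 in the Piedmontese and at 12.63, 12.74 and 13.35 in the Wagyu cross, a difference of +0.83 (95% interval 0.17 to 1.49, unadjusted p = 0.021, adjusted p = 0.76 in limma). IGF2R stood at 14.61, 14.72 and 14.72 against 13.85, 14.38 and 14.39, a difference of +0.44 (0.04 to 0.84, unadjusted p = 0.035). The IGF2R values did not overlap and those of IGFBP3 overlapped, and neither difference passed adjustment. IGF1R stood at 8.59, 9.17 and 9.57 against 8.61, 8.66 and 8.93, a difference of +0.38 (-0.23 to 0.99). With so few newborn animals, differences of 1 log2 unit lay inside the intervals of IGF1, IGFBP3, IGFBP4, IGFBP5 and IGFBP6.

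The post-natal animals (5 and 4) gave narrower intervals than the fetal ones for all members but IGF1R and IGFBP6. No gene was called (0%) and 779 had an unadjusted p under 0.05, with no member among them. The interval of IGF2 was -0.13 to 0.13, of IGF1 -0.26 to 0.15, of IGF2R -0.08 to 0.25, of IGFBP3 -0.11 to 0.28 and of IGF1R -0.23 to 0.29. The largest member difference was that of IGFBP5, +0.28 (-0.03 to 0.59). Whether the cross difference itself differed between post-natal and fetal animals was also tested, and no gene was called (0%; 245 genes, none of them members, at an unadjusted p under 0.05).

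**Figure D4:**
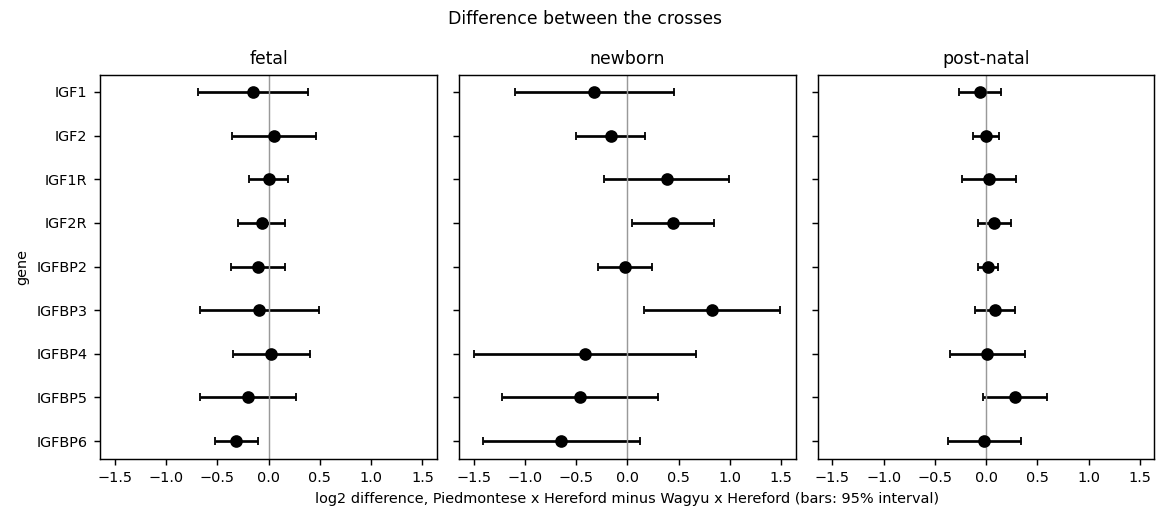
Difference between the crosses (log2, Piedmontese × Hereford minus Wagyu × Hereford, horizontal axis) for each gene in fetal, newborn and post-natal animals, with 95% intervals from limma. The newborn intervals are the widest for all genes but IGF2, and IGFBP3 at birth (+0.83) lies farthest from 0.

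The diet experiment asked what weight loss and the following re-feeding did to muscle. At time 0, where 1.02% of all genes were called, no member differed between the animals assigned to the diets. IGF1 (+0.55, SE 0.13, adjusted p = 0.092) and IGF2R (-0.49) had an unadjusted p under 0.05 in limma. Such a p was reached by 2309 of the 14662 genes. At time 1 the restricted animals had more IGF1R and less IGFBP5 and IGFBP6 than the growth animals, with 14% of all genes called. At time 2 no gene was called (0%). The times lay on different slides, so that change within a diet cannot be told apart from slide. Both diets of a time shared its arrays.

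IGF1R at time 0 was 7.63, 7.85, 8.28 and 8.84 in the restricted and 7.79, 7.99, 8.39 and 8.63 in the growth animals, so that the diets overlapped. At time 1 it was 8.53, 9.06 and 9.42 in the restricted animals and between 7.75 and 8.11 in the 4 growth animals, with no overlap. The difference at time 1 was +1.08 (SE 0.21, adjusted p = 0.018), 2.11-fold. At time 2 the levels were 8.39 and 8.64 against 8.16 and 8.34. From time 0 to time 1 IGF1R rose by 0.68, 1.80 and 0.78 in the 3 restricted animals sampled at both times, and the growth animals changed by -0.64, -0.63, 0.05 and 0.12. Within the restricted arm 10.4% of all genes were called over this interval, and time and slide cannot be told apart there. The IGF1R change was +1.08 (limma's adjusted p = 0.035). This call was lost in 8 of 20 settings, and the change was 0.73 without replicate 1 or restricted animal 2.

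IGFBP5 was 9.68, 9.99, 10.56 and 10.85 in the restricted and 9.73, 9.99, 10.20 and 10.45 in the growth animals at time 0. At time 1 it was 8.72, 9.21 and 9.68 against 10.44, 10.48, 10.79 and 11.02, again with no overlap and in the direction opposite to IGF1R. The difference was -1.48 (SE 0.24, adjusted p = 0.012), 2.79-fold. The brighter probe alone read 10.92, 11.73 and 12.45 against 13.86, 13.89, 14.19 and 14.63, a 5.42-fold difference (-2.44, adjusted p = 0.0083). At time 2 IGFBP5 was 9.60 and 10.30 against 10.19 and 10.46. The restricted animals changed by -0.89, -2.13 and -0.78 from time 0 to time 1, and the growth animals by -0.01, 0.75, 0.80 and 0.83. Within the restricted arm, where time and slide cannot be told apart, IGFBP5 fell by 1.27 (SE 0.27, limma's adjusted p = 0.030). This call was lost in 6 of 20 settings, and the fall was 0.83 without replicate 1 or restricted animal 2.

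IGFBP6 at time 1 was 11.44, 12.06 and 12.64 in the restricted and 13.22, 13.25, 13.37 and 14.10 in the growth animals, a difference of -1.44 (SE 0.32, adjusted p = 0.027), 2.71-fold. At time 0 both arms had spread widely, from 12.56 to 14.75 and from 12.71 to 15.06. IGFBP4 at time 1 was 9.03, 9.21 and 9.27 against 9.78, 9.80, 9.90 and 11.08, with no overlap, but the difference of -0.97 was not called (adjusted p = 0.081). Without the growth animal at 11.08 it was -0.66 and called.

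IGFBP3 at time 1 was 11.05, 11.89 and 12.52 in the restricted and 10.98, 11.12, 11.36 and 11.54 in the growth animals, with overlap (+0.57, adjusted p = 0.27). Without restricted animal 1 this difference was +0.96 and called (adjusted p = 0.040), and without restricted animal 4 it was +0.22. Its change from time 0 differed, as it was 0.37, 0.54 and 0.82 in the restricted animals and -0.92, -0.67, -0.35 and -0.05 in the growth animals. Neither ligand was called at time 1. IGF1 then was 8.59, 9.17 and 9.57 against 8.67, 9.30, 9.31 and 9.40 (-0.06, 95% interval -0.68 to 0.55), and the interval of IGF2 was -0.64 to 0.18. IGF2R differed by 0.04 (-0.20 to 0.28), and IGFBP2 was near background throughout. The arms had not started level in IGF1, at 8.88 to 9.20 in the restricted and 8.23 to 8.68 in the growth animals at time 0. From there IGF1 changed by -0.56, -0.03 and 0.67 in the restricted and by 0.08, 0.62, 0.87 and 1.18 in the growth animals. The difference of these changes was not called.

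The test of whether the change from time 0 to time 1 differed between the diets called 8.48% of all genes and 3 members. The difference of the changes, restricted minus growth, was +1.36 for IGF1R (SE 0.33, adjusted p = 0.045), +1.07 for IGFBP3 (SE 0.23, adjusted p = 0.032) and -1.86 for IGFBP5 (SE 0.36, adjusted p = 0.026). The direction held in all 20 alternative settings, but the call of IGF1R was lost in 16 of them (differences from 1.00 to 1.93 over all 20), that of IGFBP3 in 11 (0.89 to 1.48) and that of IGFBP5 in 8 (-3.03 to -1.36). In the growth arm alone, 0.859% of all genes and no member were called over this interval. There 4 members (IGF1 +0.69, IGF2R -0.61, IGFBP3 -0.50 and IGFBP5 +0.59) had an unadjusted p under 0.05 in limma. Such a p was reached by 2919 of the 14662 genes.

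From time 1 to time 2, with 2 animals of each diet at time 2, no member was called in limma. Of all genes, 0.109% were called in the restricted arm and 0% in the growth arm, where 1851 had an unadjusted p under 0.05. For the difference of these changes 0.136% were called. The restricted animals changed by +0.75 in IGFBP5 (adjusted p = 0.095) and by -0.83 in IGFBP3 (adjusted p = 0.11), the opposite signs to those of the first interval. At time 2 itself no gene passed adjustment and 813 had an unadjusted p under 0.05, among them IGF1 (-0.33), IGFBP3 (-0.70) and IGFBP6 (-1.08).

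Most of these calls depended on single arrays or animals. At time 1 that of IGF1R was lost without the arrays of replicate 1, 3 or 4 (0.93, 1.01 and 1.02) and without restricted animal 2 or 4 (0.87 and 1.05), and that of IGFBP5 without replicate 1 or 4 (-1.20 and -1.57). That of IGFBP6 was lost without replicate 1, 3 or 4, growth animal 1 or 3, or restricted animal 1 or 2. The levels of other cell types moved at the same time. At time 1, 5 of 6 matrix markers were lower in the restricted animals (list means 9.32 to 10.03 against 11.74 to 12.97), as were 5 of 7 muscle fibre markers (15.5 to 15.71 against 17.07 to 18.15, with 1 higher), 2 of 4 endothelial ones (10.13 to 10.31 against 10.69 to 11.24) and 1 of 4 leukocyte ones, and their part in the result was not tested.

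**Figure D5:**
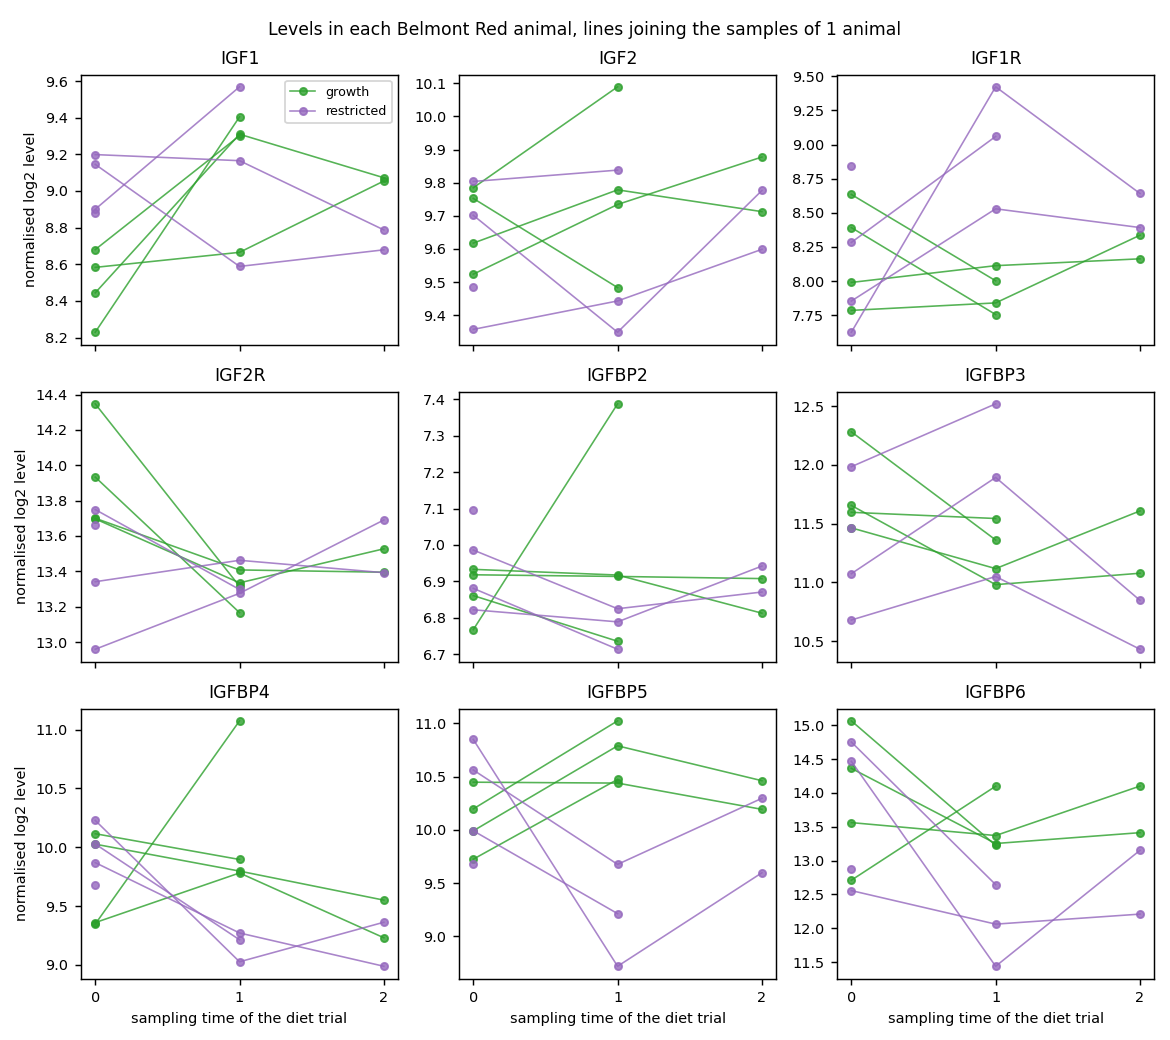
Level of each gene (log2 normalised intensity, vertical axis) in each Belmont Red animal at times 0, 1 and 2 (horizontal axis), restricted and growth diets in different colours. At time 1 the restricted animals lie above all growth animals in IGF1R and below all of them in IGFBP4, IGFBP5 and IGFBP6.

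Set side by side, the newborn and the restricted animals at time 1 shared several signs. IGF1R was +0.92 at birth against 195 days and +1.08 in restricted against growth animals, IGFBP5 was -1.36 and -1.48, and IGFBP6 -1.84 and -1.44. IGFBP4 was -2.49 and -0.97, the latter not called. IGF2 (-0.77 and -0.23) and IGF2R (-0.92 and 0.04) were called only in the first of these comparisons. These values come from separate fits on different animals, and whether they differ was not tested.

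Other genes of the pathway were taken from lists of its known parts, and their counts are read beside the shares of all genes given above for each comparison. Among regulators of IGF2, which include RNA-binding proteins of its transcript, all 4 tested were lower in post-natal than in fetal animals, namely IGF2BP3 (-3.99), PLAGL1 (-3.67), IGF2BP2 (-1.15) and the imprinted neighbour H19 (-0.87). At birth 3 of the 4 were lower, among them PLAGL1 (-2.40) and IGF2BP3 (-1.49). None was called at diet time 1. On the growth hormone and carrier side, GHR, the growth hormone receptor, was higher in post-natal animals (+1.46) and at birth (+0.50), INSR, the insulin receptor, was higher at birth (+0.78), INS was higher in post-natal animals (+0.22) and at birth (+0.39), and IGFALS, which forms the ternary complex with IGFBP3, was lower in both comparisons (-0.66 and -1.41). None of these 4 tested genes was called at diet time 1.

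Among the proteases that cleave the binding proteins and their inhibitors, 1 of 6 was higher and 3 lower in post-natal animals, among them PAPPA (+0.52), ADAM12 (-1.46) and HTRA1 (-0.49). At birth 3 were higher and 2 lower, and HTRA1 (-1.44) and ADAM12 (-1.06) were those that fell. HTRA1 was also the only one called at diet time 1, where it was lower in the restricted animals (-1.06, adjusted p = 0.0073). Of the 7 adaptors and feedback genes, 4 were higher in post-natal animals, among them GRB10 (+1.51) and SOCS3 (+1.19), and 2 were lower, SOCS2 (-1.47) and SHC1 (-0.62). IRS2, a docking protein of IGF1R and the insulin receptor, was the only one of the 7 higher at birth (+2.08), where SOCS2 (-1.65) and SHC1 (-0.22) were lower. It was also higher at diet time 1 (+0.61, adjusted p = 0.045).

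Of the 10 tested genes of the PI3K-AKT-mTOR branch, 5 were higher and 4 lower in post-natal animals, among them PIK3R1 (+1.08), TSC1 (+0.58), EIF4EBP1 (-0.99) and AKT1 (-0.89). At birth 5 were higher, among them FOXO3 (+1.21) and PIK3R1 (+0.99), and 1 was lower, TSC2 (-0.27). At diet time 1, 2 of the 10 were higher in the restricted animals and none lower. They were EIF4EBP1, a repressor of cap-dependent translation (+1.70, adjusted p = 0.030), and TSC2, an inhibitor of mTOR signalling (+0.70, adjusted p = 0.019).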

How the data were processed

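Total RNA from LTL biopsies was hybridised to 48 two-colour Agilent arrays, with dyes swapped between arrays. The deposited files are the authors' scanner output, which holds the mean and background intensity of each spot and channel, and a series table whose log10 ratio equals the scanner's ratio on every array. Per the submitters' processing notes, the scanner software was Agilent Feature Extraction 9.5.1. Intensities were background-corrected (normexp, offset 50), loess-normalised within arrays and Aquantile-normalised between them in limma 3.58.1 (R 4.3.3). Outlier spots were left out, spots of a probe averaged, and probes kept if well above background in at least 24 of 96 channels and present on all arrays. Probes of a gene were averaged (996 genes had more than 1). limma (lmFit, eBayes) was run over 14662 genes (Benjamini-Hochberg adjusted p under 0.05), with 1 value per animal, or per array for the steps between ages. Before crosses or diets were compared, each gene's dye effect was subtracted.

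All 9 members were named wherever detected, and for each the 2 genes most like it. The members, pathway lists and markers were chosen with earlier results of these data known. The RefSeq table named 16711 probes. Its genome build may not be that of the array design, so no coordinates are given. No pair of arrays was identical. Animals of a group were separate animals except where stated, so that the spread at 60 days is technical. The 135-day fetus low in muscle markers was left out in an alternative chosen after seeing the data. Precision is limited by the number of arrays. Scripts were tested on simulated data. As the labels give it, replicates with the same number share a slide only within certain ages. These are the ages before and at birth, those from 3 to 20 months, and 25 with 30 months. In the diet experiment all arrays of a time share a slide, and the times lie on different slides. Deviations of same-slide arrays from their age means correlated at r = 0.0052 to 0.47 (median 0.26, 18 pairs) before and at birth and 0.056 to 0.63 (median 0.38, 24 pairs) from 3 to 20 months. Alternatives were the processed signals, median centring, the deposited ratios, other dim-probe filters, the brightest probe, a replicate block, and leaving out each replicate or animal.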

Additional observations from a re-analysis of the deposited data

Results flagged for a closer look

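In 8 of the 90 groups of values examined, 1 sample stood apart from the others of its group, where chance marks about 1 in 20 groups. Of these 3 were growth animals at diet time 1. IGFBP4 was 11.08 in growth animal 4 (others 9.78 to 9.90), and IGFBP6 was 14.10 in the same animal (others 13.22 to 13.37). IGF1 was 8.67 in growth animal 3 (others 9.30 to 9.40). In 1 newborn Wagyu cross IGFBP6 was 13.63 (others 12.30 to 12.77).

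Single arrays stood apart in 4 post-natal groups. IGF2R was 13.34 on 1 array at 3 months (others 13.58 to 13.62), and IGFBP4 was 9.99 on 1 array at 12 months (others 9.79 to 9.80). IGFBP2, near background at these ages, was 7.18 on 1 array at 3 months (others 6.74 to 6.79) and 7.24 on 1 at 20 months (others 6.78 to 6.84).

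The change from time 0 to time 1 differed between the diets, by a limma test of the difference itself, for IGF1R (1.36, restricted minus growth, adjusted p = 0.045), IGFBP3 (1.07, adjusted p = 0.032) and IGFBP5 (-1.86, adjusted p = 0.026). The call was lost in 16 of 20 alternative settings for IGF1R, in 11 for IGFBP3 and in 8 for IGFBP5.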

How the results depend on the processing

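Of the alternatives computed for 53 member results, 718 stayed on the same side of the threshold, 117 lost the call, 9 gained it and none reversed direction. With the slide as a replicate block, 24 steps were called against 20 over the same steps (the added calls are those of IGF1, IGFBP3 and IGFBP6 given above). Slide cannot be a block between post-natal and fetal muscle. There each array was 1 value and the replicate number was the block, which joins arrays of different slides. This called 8 members, as the main fit did. With log ratios within arrays, each array being 1 value, no cross difference was called, and 4 diet differences against 3. Median centring without loess lowered the called steps from 26 to 10. It moved the median of all genes by over 0.1 at 195 days to birth (0.20), 20 to 25 months (-0.30) and 25 to 30 months (0.48), between post-natal and fetal animals (0.12), and in the diet change (0.14), and raised the share of calls that were higher from 58.6% to 89.9% at 25 to 30 months, from 50.5% to 74.4% at diet time 1, from 49.0% to 78.4% for the diet change and from 58.3% to 69.3% within the restricted arm. It lowered that share from 48.6% to 20.4% at 60 to 135 days (62.9% with processed signals), from 45.6% to 35.2% at 135 to 195 days, from 50.3% to 31.2% at birth to 3 months and from 57.1% to 21.4% within the growth arm. The difference in change from time 0 to time 1 was called in 5 tests over genes and arms (3 members between the diets, 2 within the restricted arm). This count was 2 with processed signals, 8 with median centring, 3 with no filter on dim probes and 3 with the dye effect kept. Leaving out a replicate or animal gave 7 to 8 calls between post-natal and fetal animals, 18 to 23 steps, 0 for the crosses, 0 to 4 diet differences and 0 to 6 differences in change. The diet differences (3) became 0 without replicate 1 or 4 and 1 without replicate 3 or restricted animal 2. The differences in change became 0 without replicate 1 or 4, growth animal 2 or restricted animal 2, 1 without restricted animal 4, and 2 without replicate 3 or growth animal 1 or 3. Leaving out the 135-day fetus low in muscle markers, an alternative chosen after seeing the data, gave 8 calls between post-natal and fetal animals, 26 steps (that of IGFBP6 from 60 to 135 days was lost and 1 after 195 days gained) and 0 for the crosses. Requiring 48 channels dropped IGFBP2. Depth for IGFBP2 after birth, and for the dimmer probes of IGF2 and IGFBP5, is limited by background, which bounds how large a fall they can show.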

Other observations

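A further probe on the array, LOC619174, is described as similar to an IGF1 receptor but is not part of the set. It was well above background in 5 of 96 channels.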
